A study of Homo sapiens with 12 samples.

Results

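The 35 genes described here make sterols and fatty acids, control that synthesis, or move cholesterol within and out of the cell. They are a list of named genes, grouped by the step they serve, and the rule sets no threshold on a measured value, but the list was drawn up with earlier results of these data known. The mevalonate steps, from acetyl-CoA to farnesyl diphosphate, held 7 genes, and the squalene and sterol steps, from farnesyl diphosphate to cholesterol, held 11. A further 5 genes regulate the pathway, 8 serve fatty acid and lipid synthesis, and 4 transport or export cholesterol. Each gene matched 1 of the 58302 gene identifiers in the RNA-seq table, and all 35 were among the 15826 genes with enough counts to be tested.

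The study treated oral squamous cell carcinoma (OSCC) cells with rapamycin, an inhibitor of mTOR complex 1, to induce autophagy. RNA-seq comprised 2 libraries from cells given 100 nM rapamycin and 2 from control cells, numbered 1 and 2 in each group. The m6A peaks came from 1 pair of immunoprecipitated and input RNA for each of HSC3 and CAL33, both established human OSCC lines, as control cells or after 3 days in 100 nM rapamycin. The labels name no genetic change in any group. The labels place both rapamycin RNA-seq libraries in HSC3 and both control libraries in CAL33, whereas in the m6A libraries number 1 marks HSC3 and number 2 marks CAL33. Taken as written, the RNA-seq labels would make rapamycin and cell line impossible to tell apart. Across genes, the correlation of log2 normalised read counts was 0.966 and 0.956 between libraries of the same number and between 0.761 and 0.811 for the other library pairs. Rapamycin was compared with control within each number, because the rule that lists these genes pairs the libraries by number. Nothing states that the libraries came from separate cultures. The p-values therefore measure only the spread left among these libraries after the difference between numbers 1 and 2 was fitted.

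Sterol synthesis is controlled by SREBP transcription factors, which are held in the endoplasmic reticulum by SCAP and INSIG proteins while sterols are plentiful. When sterols fall, SREBPs move to the Golgi, are cut, and enter the nucleus to switch on most genes of the mevalonate, sterol and fatty acid pathways. Signalling through mTOR complex 1 is known to promote SREBP activity. In the opposite direction, oxysterols activate the LXR receptors, which switch on the cholesterol exporters *ABCA1* and *ABCG1*. Dividing carcinoma cells use sterols and fatty acids to build membranes.

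The RNA-seq libraries held between 18492273 and 23763098 counts. Levels are normalised read counts (CPM), scaled by library size with edgeR's TMM factors. Of 10 squamous epithelial markers, 9 had counts in both number 1 libraries and 10 in both number 2 libraries, with *KRT14* at 0 in the number 1 libraries. The summed level of these markers was 1109 to 1965 CPM with rapamycin and 1385 to 4247 CPM in control cells, and *KRT5*, *KRT6A* and *KRT14* fell, *KRT14* on the number 2 libraries alone. The 10 markers of other cell types summed to 37.7 and 53.3 CPM with rapamycin and 28.1 and 19.2 CPM in control cells, mostly from *COL1A1* and *ACTA2*, and *PTPRC*, *COL3A1* and *MLANA* were at 0 throughout. The part of these shifts in the results below was not tested. In bulk RNA, fewer cells of a type and less RNA per cell cannot be told apart.

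The genes that moved together are shown first by their promoters. RefSeq windows of 300 bases (GRCh38.p14), from 250 before to 50 after an annotated start, were available for 30 of the 35 genes. The others were *ABCG1*, *ACAT2*, *FASN*, *FDFT1* and *SQLE*. The windows below belong to the 5 genes with a window that fell with rapamycin, taking the start with most CCAAT boxes, and to *SREBF2*, which encodes SREBP2. *HMGCS1*, *DHCR7* and *IDI1* each have another annotated start whose window held 0 CCAAT boxes. Capitals mark CCAAT boxes, the sequence bound by NF-Y (CCAAT, or ATTGG on the other strand), and in *SREBF2* also an exact match to the sterol regulatory element TCACNCCAC. The windows are, in order, chr5:43313363-43313662 (minus strand), chr12:109573544-109573843 (plus), chr10:1048837-1049136 (minus), chr11:71448344-71448643 (minus), chr10:100346983-100347282 (plus) and chr22:41832855-41833154 (plus).
HMGCS1: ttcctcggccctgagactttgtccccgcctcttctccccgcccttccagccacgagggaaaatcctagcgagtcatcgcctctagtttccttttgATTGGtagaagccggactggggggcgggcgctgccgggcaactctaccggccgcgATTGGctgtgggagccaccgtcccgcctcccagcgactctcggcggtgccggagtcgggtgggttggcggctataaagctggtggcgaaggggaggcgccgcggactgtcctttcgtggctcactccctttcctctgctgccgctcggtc
MVK: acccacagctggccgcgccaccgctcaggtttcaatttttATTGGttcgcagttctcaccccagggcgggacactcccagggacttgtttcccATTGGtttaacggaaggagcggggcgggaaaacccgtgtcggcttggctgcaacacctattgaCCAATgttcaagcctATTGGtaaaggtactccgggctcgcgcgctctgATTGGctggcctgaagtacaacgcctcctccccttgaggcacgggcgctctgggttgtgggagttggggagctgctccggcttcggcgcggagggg
IDI1: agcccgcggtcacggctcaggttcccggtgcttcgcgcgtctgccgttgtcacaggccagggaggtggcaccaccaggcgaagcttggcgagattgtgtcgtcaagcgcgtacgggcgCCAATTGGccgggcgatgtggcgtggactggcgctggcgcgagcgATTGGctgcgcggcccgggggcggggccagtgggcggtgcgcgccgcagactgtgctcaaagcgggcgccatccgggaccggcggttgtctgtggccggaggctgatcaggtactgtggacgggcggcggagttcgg
DHCR7: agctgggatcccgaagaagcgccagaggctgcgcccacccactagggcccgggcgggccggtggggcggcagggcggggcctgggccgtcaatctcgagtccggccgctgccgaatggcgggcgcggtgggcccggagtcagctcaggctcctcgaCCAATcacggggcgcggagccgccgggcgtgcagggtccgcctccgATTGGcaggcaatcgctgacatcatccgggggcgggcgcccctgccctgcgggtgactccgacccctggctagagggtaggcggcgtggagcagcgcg
SCD: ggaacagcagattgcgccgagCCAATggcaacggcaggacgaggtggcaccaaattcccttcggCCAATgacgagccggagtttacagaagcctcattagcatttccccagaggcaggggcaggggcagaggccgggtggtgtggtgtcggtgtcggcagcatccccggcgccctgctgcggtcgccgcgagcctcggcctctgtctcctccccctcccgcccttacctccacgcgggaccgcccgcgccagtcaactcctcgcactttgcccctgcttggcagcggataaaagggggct
SREBF2: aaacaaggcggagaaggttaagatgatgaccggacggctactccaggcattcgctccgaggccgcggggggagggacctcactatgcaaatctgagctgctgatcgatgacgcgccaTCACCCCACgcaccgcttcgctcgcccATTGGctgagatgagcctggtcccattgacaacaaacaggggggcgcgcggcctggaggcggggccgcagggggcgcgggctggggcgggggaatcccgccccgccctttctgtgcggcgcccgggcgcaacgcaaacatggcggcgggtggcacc

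Both strands were searched for 4 motifs whose letters do not contain one another. CCAAT was present in a window of 20 of the 30 genes, and in 13 of the 15 sterol synthesis enzymes with a window, against 42.8% of the 11397 tested genes with a window. The *MVK* window held 5 boxes, between −210 and −46 bases from the start. The *IDI1* window held 3, of which CCAATTGG is counted on both strands, and the *HMGCS1* boxes lay at −155 and −100. The GC box GGGCGG was found in 29 of the 30 genes and in 75.9% of tested genes, and the E-box CACGTG in 5 of the 30 genes and in 12.3%. The exact TCACNCCAC was found in *SREBF2* alone among the 30 genes, at −133 as TCACCCCAC, and in 1.43% of tested genes. These matches describe letters in the windows and do not show binding.

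Rapamycin-treated cells had less mRNA for 6 of the 18 sterol synthesis enzymes and for *FASN* and *SCD*, and more for the exporter *ABCG1*, while 12 of the sterol enzymes did not pass the test. Of the 35 genes, 9 passed the test against 8.15% of all tested genes. Of these 8 fell and 1 rose, against 3.5% and 4.65% of all tested genes (edgeR's quasi-likelihood test within numbered pairs, Benjamini-Hochberg adjusted p under 0.05). All 8 genes that fell lay in the mevalonate steps (4), the squalene and sterol steps (2) or the fatty acid steps (2). The median log2 fold change was −0.58 over the 35 genes and 0.05 over all tested genes. In both numbered pairs 21 genes were lower with rapamycin, against 31.8% of all tested genes, and 6 were higher, against 34.6%. Levels in both rapamycin libraries were below both control libraries for 15 genes and above for 2, compared with 16.5% and 15% of all tested genes. A fall of at least 1.5-fold in each numbered pair, a criterion chosen after the values were seen, was met by 11 genes against 6.91% of all tested genes, and a rise of that size by 1 gene against 11.9%. Without the number in the fit, 0 of the 35 genes and 0 of all tested genes passed edgeR's threshold, 6 of the 35 had an unadjusted p under 0.05 against 2.82% of all genes, and DESeq2 without the number called 0 of the 29 with an adjusted p.

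**Figure D1:**
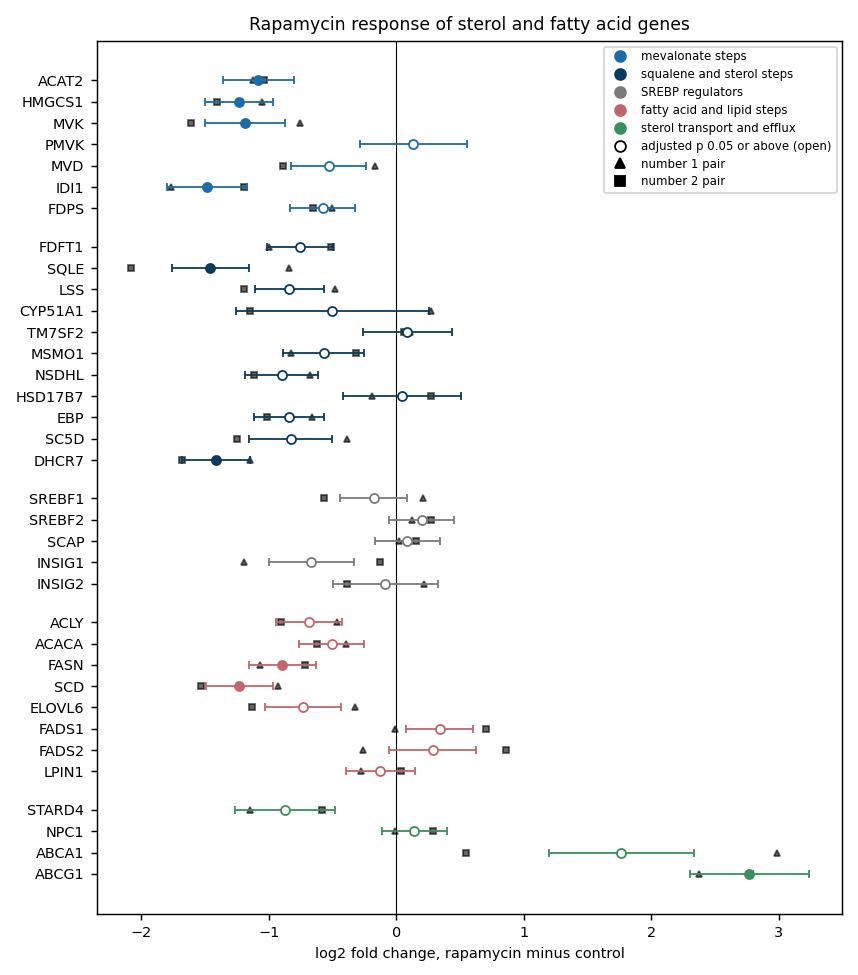
Log2 fold change (rapamycin minus control, x axis) of each of the 35 genes (y axis), grouped and coloured by step; circles are the fit within numbered pairs with its standard error, filled where the adjusted p was under 0.05, and triangles and squares are the log2 CPM differences of the number 1 and number 2 pairs. Filled circles are 8 genes left of 0, from −1.49 to −0.89, and *ABCG1* at 2.77.

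**Figure D2:**
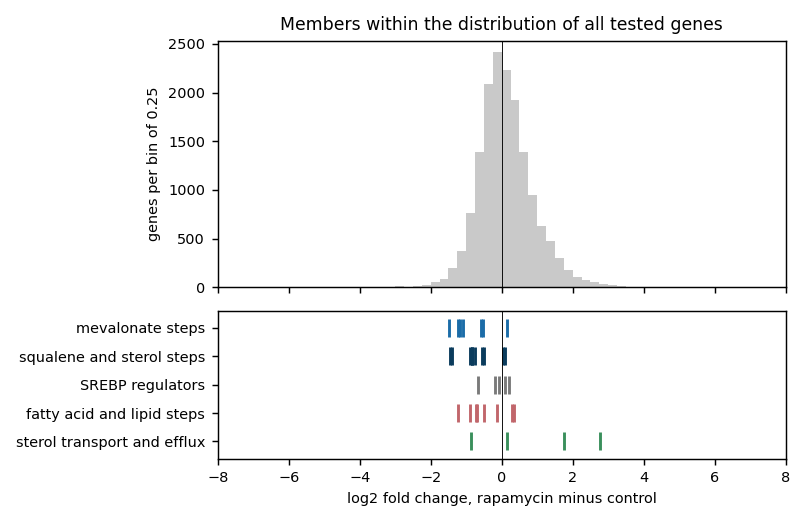
Top, number of tested genes in each bin of 0.25 of the log2 fold change (rapamycin minus control); bottom, the 35 genes on the same axis, 1 tick each, by step. The ticks of the mevalonate and sterol steps lie mostly left of 0, with medians of −1.08 and −0.83, while the median of all genes is 0.05.

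The mevalonate steps turn acetyl-CoA into the isoprenoid units that build sterols and related lipids. Of these 7 genes, 4 fell and 3 did not pass the test. *ACAT2*, the cytosolic thiolase that opens the pathway, was 73.9 and 63.9 CPM in control libraries 1 and 2 and 33.9 and 31.1 CPM in rapamycin libraries 1 and 2, a log2 fold change of −1.08 (standard error 0.28, adjusted p = 0.0166, edgeR). The rapamycin libraries were close to each other and both well below the controls. *ACAT2* overlaps *TCP1*, which had 26407 counts over the 4 libraries against 4330 for *ACAT2* and itself fell, with a log2 fold change of −1.06 (adjusted p = 0.0119, edgeR). Since the use of strand in counting is not stated, reads of these neighbours cannot be told apart, and the fall of *ACAT2* carries that uncertainty. *MVK* overlaps *MMAB* (log2 fold change −0.12) and *IDI1* overlaps *WDR37* (−0.42), neither of which passed the test. *FDPS*, *CYP51A1*, *SREBF1*, *SREBF2*, *INSIG1*, *ACACA*, *FADS1*, *FADS2*, *STARD4*, *NPC1* and *ABCA1* also overlap another gene with counts. The uncertainty this brings differs with the counts of the neighbour. *RAI1* had 18400 counts against 19566 for *SREBF1*. In contrast, *SREBF2-AS1* had 3 against 23349 for *SREBF2*, and *HMGB1P24* had 10 against 20152 for *ACACA*.

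*HMGCS1*, which makes HMG-CoA, was 88.8 and 140.7 CPM in the controls and 42.6 and 53.0 CPM with rapamycin, with no overlap between the groups. The fit put its log2 fold change at −1.23 (standard error 0.26, adjusted p = 0.00549, edgeR). *MVK*, mevalonate kinase, was 42.0 and 47.8 CPM in the controls and 24.8 and 15.6 CPM with rapamycin. The fall was larger in the number 2 pair (−1.61 on the log2 scale) than in the number 1 pair (−0.76), with a fitted value of −1.19 (standard error 0.31, adjusted p = 0.0197, edgeR). With DESeq2 in place of edgeR, *MVK* missed the threshold (adjusted p = 0.0527). *IDI1*, which isomerises isopentenyl diphosphate, had the largest fitted fall of the 35 genes. It was 40.1 and 44.6 CPM in the controls and 11.7 and 19.4 CPM with rapamycin, a log2 fold change of −1.49 (standard error 0.32, adjusted p = 0.00532, edgeR).

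The other 3 mevalonate genes did not pass. *FDPS*, farnesyl diphosphate synthase, was 81.5 and 156.7 CPM in the controls and 57.4 and 99.7 CPM with rapamycin, so the groups overlapped although each pair was lower with rapamycin (log2 fold change −0.58, standard error 0.25). *MVD*, mevalonate diphosphate decarboxylase, was 38.8 and 63.2 CPM in the controls and 34.5 and 34.1 CPM with rapamycin (−0.53, standard error 0.29). *PMVK*, phosphomevalonate kinase, was the gene of this step with a value above 0, at 7.66 and 7.43 CPM in the controls and 8.40 and 8.16 CPM with rapamycin (0.14, standard error 0.42). Its low counts, between 149 and 176 per library, give it a wide error.

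**Figure D3:**
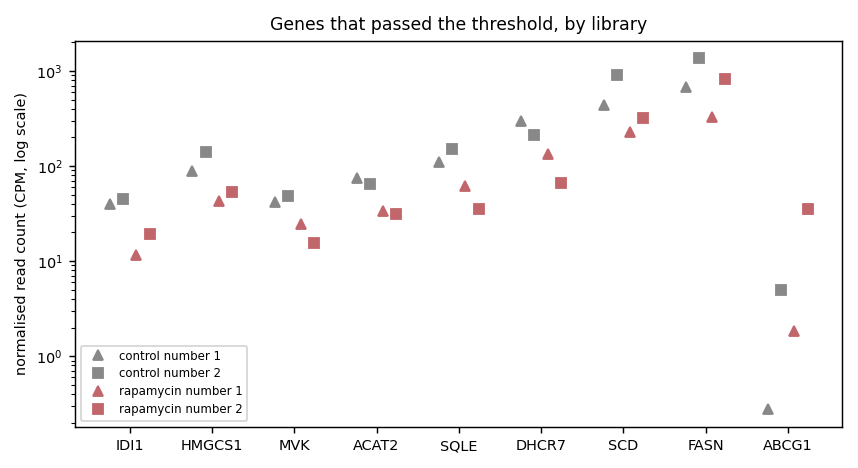
Normalised read count (CPM, log scale, y axis) of the 9 genes that passed the threshold (x axis) in each library; grey marks control and red rapamycin, triangles number 1 and squares number 2. For 7 of the 8 genes that fell both red marks lie below both grey marks, against 16.5% of all tested genes. The genes were called from these same libraries, so this is no separate check. For *FASN* the number 2 rapamycin library (826 CPM) lies above the number 1 control (682 CPM).

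The squalene and sterol steps join farnesyl units into squalene, close the ring and remodel it to cholesterol. Of 11 genes, *SQLE* and *DHCR7* fell and 9 did not pass. *SQLE*, squalene epoxidase and a flux-controlling enzyme, was 110.4 and 151.5 CPM in the controls and 61.7 and 35.7 CPM with rapamycin. The difference was −0.84 in the number 1 pair and −2.08 in the number 2 pair on the log2 scale, with a fitted value of −1.46 (standard error 0.30, adjusted p = 0.00634, edgeR). *DHCR7*, which catalyses the last reduction to cholesterol, was 294.9 and 214.1 CPM in the controls and 133.3 and 66.6 CPM with rapamycin. Its log2 fold change of −1.41 (standard error 0.27) had the lowest adjusted p of the genes that fell (0.00205, edgeR). Both of its pairs were lower by more than 1 on the log2 scale (−1.15 and −1.68), as were those of *ACAT2*, *HMGCS1* and *IDI1*.

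A group of 4 sterol enzymes lay near the threshold. *NSDHL*, which removes C4 methyl groups, was 61.9 and 47.3 CPM in the controls and 38.6 and 21.8 CPM with rapamycin (log2 fold change −0.90, adjusted p = 0.0516, edgeR). *LSS*, which cyclises squalene epoxide to lanosterol, was 107.3 and 87.2 CPM in the controls and 76.8 and 38.0 CPM with rapamycin (−0.84, adjusted p = 0.0537, edgeR). *EBP*, the sterol isomerase, was 59.9 and 77.5 CPM in the controls and 37.8 and 38.3 CPM with rapamycin (−0.84, adjusted p = 0.0582, edgeR). In each of these genes both rapamycin libraries were below both controls. *FDFT1*, squalene synthase, was 114.9 and 233.9 CPM in the controls and 57.4 and 164.2 CPM with rapamycin, which overlapped between groups (−0.75, adjusted p = 0.0698, edgeR). All 4 passed when no filter on low counts was used, with adjusted p between 0.0296 and 0.0468 (edgeR). All 4 missed with DESeq2 within numbered pairs (adjusted p between 0.0849 and 0.1125). They also missed with upper-quartile normalization (adjusted p between 0.0809 and 0.106, edgeR).

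The other 5 sterol genes were further from the threshold. *SC5D*, sterol C5 desaturase, was 15.9 and 53.5 CPM in the controls and 12.1 and 22.5 CPM with rapamycin (log2 fold change −0.83, standard error 0.33). *MSMO1*, the C4 methyl oxidase, was 23.8 and 34.3 CPM in the controls and 13.4 and 27.6 CPM with rapamycin (−0.57, standard error 0.32). In both genes each numbered pair was lower with rapamycin, by less in *SC5D* number 1 (−0.38) and *MSMO1* number 2 (−0.31). *TM7SF2*, a sterol C14 reductase, was 6.23 and 26.4 CPM in the controls and 6.72 and 27.6 CPM with rapamycin (0.09, standard error 0.35). *HSD17B7*, a ketosteroid reductase, was between 4.73 and 7.40 CPM in all libraries (0.04, standard error 0.46). *CYP51A1*, the lanosterol demethylase, had between 6 and 20 counts per library, and no difference was detectable at this depth (−0.50, standard error 0.76). Its 47 counts stand beside 19 of the overlapping *CYP51A1-AS1* and 16 of its pseudogenes, so they may be shared among these genes.

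The 5 regulators of the pathway did not pass the test. *SREBF2* was 197.0 and 327.9 CPM in the controls and 215.0 and 395.4 CPM with rapamycin, a log2 fold change of 0.20 (standard error 0.25). *SREBF1*, which encodes SREBP1, was 136.9 and 377.2 CPM in the controls and 158.6 and 254.3 CPM with rapamycin, higher in the number 1 pair (0.21) and lower in the number 2 pair (−0.57). *SCAP*, the escort protein of SREBPs, had a log2 fold change of 0.09 (standard error 0.25) and ranged from 75.5 to 115.6 CPM. The differences for these carriers and factors were thus within about 1 standard error of 0. *INSIG1*, an SREBP target that retains SCAP, was 41.3 and 20.8 CPM in the controls and 17.96 and 19.1 CPM with rapamycin (−0.67, standard error 0.34). Its difference came mostly from the number 1 pair, at −1.20 against −0.13 in the number 2 pair. *INSIG2*, its paralog, ranged from 7.47 to 11.9 CPM (−0.09, standard error 0.41).

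Fatty acids are made from acetyl-CoA that ACLY releases from citrate. Of the 8 genes of fatty acid and lipid synthesis, *FASN* and *SCD* fell. *FASN*, fatty acid synthase, was 682 and 1358 CPM in the controls and 324 and 826 CPM with rapamycin. The groups overlapped because the number 2 libraries were higher than the number 1 libraries, but both pairs were lower with rapamycin (−1.07 and −0.72), with a fitted log2 fold change of −0.89 (standard error 0.26, adjusted p = 0.0340, edgeR). With upper-quartile normalization *FASN* missed the threshold (adjusted p = 0.0575, edgeR). *SCD*, which introduces the double bond of oleate, was 436.5 and 913.7 CPM in the controls and 229.1 and 316.1 CPM with rapamycin. The groups did not overlap, and the fitted difference was −1.23 on the log2 scale (standard error 0.27, adjusted p = 0.00598, edgeR).

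*ACLY*, *ELOVL6* and *ACACA* were lower in both pairs without passing. *ACLY* was 379.1 and 386.7 CPM in the controls and 274.4 and 206.1 CPM with rapamycin (log2 fold change −0.69, adjusted p = 0.0981, edgeR). *ELOVL6*, which elongates palmitate, was 42.0 and 64.2 CPM in the controls and 33.6 and 29.2 CPM with rapamycin (−0.73, adjusted p = 0.128, edgeR). *ACACA*, acetyl-CoA carboxylase, was 208.6 and 354.7 CPM in the controls and 158.8 and 230.2 CPM with rapamycin (−0.51, adjusted p = 0.225, edgeR). The desaturases of polyunsaturated fatty acids behaved otherwise. *FADS1* was 179.8 and 24.7 CPM in the controls and 178.4 and 40.3 CPM with rapamycin (0.34, standard error 0.26). *FADS2* was 41.1 and 6.46 CPM in the controls and 34.3 and 11.8 CPM with rapamycin (0.29, standard error 0.34). For both, the number 2 pair was higher with rapamycin (0.70 and 0.86) and the number 1 pair was not (−0.01 and −0.26). *LPIN1*, a phosphatidate phosphatase and transcriptional coregulator, ranged from 40.95 to 76.3 CPM (−0.12, standard error 0.27).

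Among the 4 transport and efflux genes, *ABCG1* rose and the others did not pass. *ABCG1*, which passes cholesterol to high-density lipoprotein, was 0.277 and 5.02 CPM in the controls and 1.84 and 34.95 CPM with rapamycin. The counts behind these levels were 6 and 119 in the controls and 35 and 638 with rapamycin. With rapamycin *ABCG1* was higher by 2.77 on the log2 scale (standard error 0.47, adjusted p = 0.00112, edgeR), above 99.5% of tested genes, and by 2.37 and 2.78 in the pairs. Libraries 1 and 2 differed more than the treatments did, so control library 2 lay above rapamycin library 1. *ABCG1* was not tested when at least 10 counts were required in every library.

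*ABCA1*, which exports cholesterol and phospholipid to apolipoproteins, was 3.78 and 8.32 CPM in the controls and 30.6 and 12.2 CPM with rapamycin. Both rapamycin libraries were above both controls, but the size differed between the number 1 pair (2.99) and the number 2 pair (0.54), and the fitted 1.77 (standard error 0.57) missed the threshold (adjusted p = 0.0903, edgeR). It passed when no filter on low counts was used (adjusted p = 0.00189, edgeR) and missed with DESeq2 within numbered pairs (adjusted p = 0.1038). *STARD4*, a cytosolic sterol carrier and SREBP target, was 15.7 and 13.0 CPM in the controls and 7.04 and 8.60 CPM with rapamycin (−0.87, adjusted p = 0.174, edgeR). *NPC1*, which exports cholesterol from lysosomes, was 176.4 and 89.7 CPM in the controls and 175.4 and 109.6 CPM with rapamycin (0.14, standard error 0.25).

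Between the numbered pairs, 26 of the 35 genes were lower with rapamycin in number 1 and 24 in number 2, against 49.1% and 45.7% of all tested genes. In number 1 the median of the 18 sterol synthesis enzymes was −0.67 and in number 2 it was −1.08. With 1 library per treatment and number, the difference between the pairs could not be tested. The libraries also differed by number within a treatment, without a test. *ABCG1* and *TM7SF2* were higher in number 2, by 3.78 and 2.07 on the log2 scale in the controls and by 4.18 and 2.02 with rapamycin. *FADS1* and *FADS2* were lower in number 2, by −2.86 and −2.65 in the controls and −2.15 and −1.53 with rapamycin. *FADS1* and *FADS2* lie head to head on chromosome 11 and their RefSeq spans overlap. *ABCA1* changed order, being higher in number 2 in the controls (1.12) and lower in number 2 with rapamycin (−1.33).

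**Figure D4:**
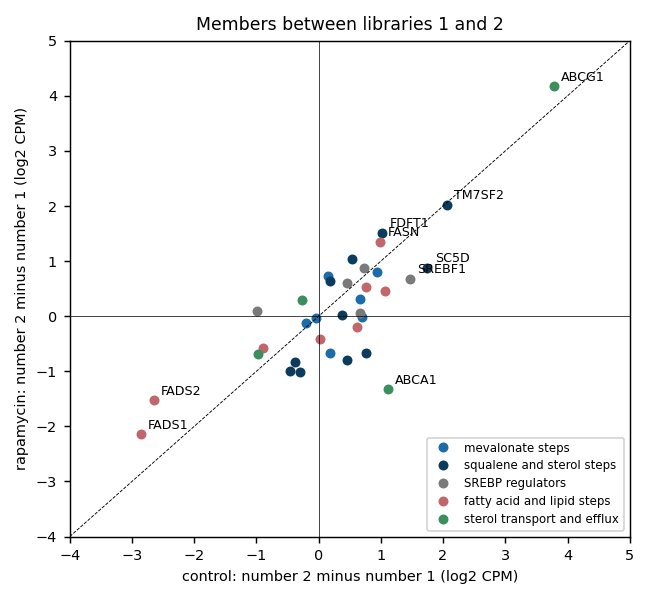
Log2 CPM of library 2 minus library 1 in control cells (x axis) against the same difference with rapamycin (y axis), 1 point per gene coloured by step; the dashed line marks equal differences. *ABCG1* and *TM7SF2* lie far up along the line, and *FADS1* and *FADS2* far down and above it. *ABCA1* lies below it at 1.12 and −1.33. Other genes also lie off it, among them *SQLE* at 0.456 and −0.787.

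Beyond these genes, 91 other lipid genes in 5 lists gave context, of which 88 were tested, 2 rose and 7 fell, against 4.65% and 3.5% of all tested genes. Of 17 tested genes of other sterol steps and SREBP processing, *TMEM97*, an NPC1-binding protein, fell (log2 fold change −1.59, adjusted p = 0.00340, edgeR). Of the 12 genes of the isoprenoid branch, which draws on the products of the mevalonate steps, all 12 had a log2 fold change below 0 (median −0.52), as did 7435 of the 15826 tested genes. In the numbered pairs 9 of the 12 were lower in both and 3 moved in opposite directions. *PDSS1*, which builds the side chain of coenzyme Q, fell (−1.70, adjusted p = 0.00988, edgeR), with −0.98 in number 1 and −2.38 in number 2. *HACD2*, a dehydratase of fatty acid elongation, fell (−0.83, adjusted p = 0.0498, edgeR), with −0.48 in number 1 and −1.17 in number 2. *FABP5*, a fatty acid carrier, also fell (−1.29, adjusted p = 0.0476, edgeR). These were the 2 of 25 tested fatty acid synthesis and activation genes to pass, and both missed with DESeq2 and with upper-quartile normalization. Of 12 lipid assembly genes, *GPAM*, the mitochondrial glycerol-phosphate acyltransferase, fell (−1.16, adjusted p = 0.0412, edgeR), with −0.64 in number 1 and −1.68 in number 2, and missed under the same settings.

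Among 22 tested genes of sterol transport, storage and LXR targets, *GRAMD1A*, which carries sterol from the plasma membrane to the endoplasmic reticulum, rose from 12.6 and 13.6 CPM to 33.2 and 54.5 CPM (log2 fold change 1.71, adjusted p = 0.00202, edgeR). *NCEH1*, a cholesterol ester hydrolase, fell (−0.92, adjusted p = 0.0292, edgeR). *CAV1*, the coat protein of caveolae, fell as well (−1.40, adjusted p = 0.0216, edgeR), by more in number 2 (−2.15) than in number 1 (−0.64). The median over all 88 tested genes of these lists was −0.06. In the numbered pairs 33 of them moved in opposite directions, as did 4756 of the 15826 tested genes.

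N6-methyladenosine (m6A), a methyl mark on mRNA, was mapped by sequencing RNA fragments pulled down with an antibody. Peaks were listed on 13 of the 35 genes in at least 1 of 4 lists (37.1%), against 35.4% of all tested genes. In HSC3, 5 of the 35 genes had a peak without rapamycin (14.3%, against 17.6% of all tested genes) and 7 with it (20.0%, against 17.5%). In CAL33, 6 had a peak without rapamycin (17.1%, against 16.1%) and 4 with it (11.4%, against 14.2%). Of the 25 peaks, 15 lay in the 3′ UTR (60.0%, against 36.3% of all peaks), 6 in the CDS, 3 in the 5′ UTR and 1 in an exon without further annotation. Values have no replicate within a line and the read depth is unknown, so no difference between treatments was tested. Positions are on hg38, and fold enrichment over input is the authors' value.

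**Figure D5:**
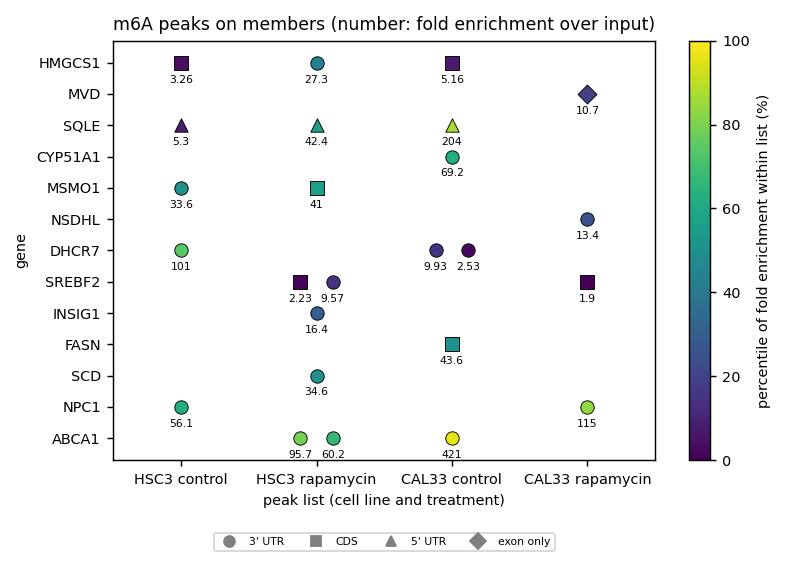
m6A peaks on the 13 genes with a peak (y axis) in each cell line and treatment (x axis); marker shape gives the annotated region, colour the percentile of fold enrichment within its list, and the number below each marker the fold enrichment over input. *DHCR7* has peaks in both control lists, *SREBF2* in both rapamycin lists, and *SQLE* in 3 of the 4 lists.

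Of the 8 genes that fell in RNA, 5 had a peak, as did 268 of the 554 genes that fell among all tested genes. *DHCR7* had a 3′ UTR peak in both control lists and none in either rapamycin list. It ran from 71435130 to 71435370 on the minus strand of chromosome 11 in HSC3 control cells, with a fold enrichment of 101 at percentile 74.0 of its list, and from 71435160 to 71435340 in CAL33 control cells, with 2.53 at percentile 2.04. CAL33 control cells had a further 3′ UTR peak from 71434502 to 71434682, with a fold enrichment of 9.93. The *DHCR7* peak was thus strong in one line and among the weakest in the other.

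*HMGCS1* had a CDS peak in both control lists, from 43298615 to 43298825 in HSC3 and from 43298586 to 43298825 in CAL33 on the minus strand of chromosome 5. Its fold enrichment was low, at 3.26 and 5.16 (percentiles 3.80 and 7.20), with log10 p of −21.4 and −19.5 in the authors' peak calling. In HSC3 rapamycin cells a peak was listed in the 3′ UTR instead, from 43289575 to 43289874 with a fold enrichment of 27.3. Its log10 p in the authors' peak calling was −7.87, so the higher fold came with the weaker p-value. *SQLE* had a 5′ UTR peak on the plus strand of chromosome 8 in 3 lists, the only gene of the 35 with overlapping peaks in 3 lists. In HSC3 its fold enrichment was 5.30 without rapamycin (124999065 to 124999304) and 42.4 with it (124999035 to 124999244). In CAL33 it was 204 without rapamycin (124998766 to 124999334). The HSC3 values stood at percentiles 8.26 and 56.6, and no *SQLE* peak was listed in CAL33 with rapamycin. In the authors' peak calling the log10 p of the HSC3 peaks was −68.9 without rapamycin and −77.6 with it. These lay much closer together than the fold enrichments.

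*FASN* had a single CDS peak of 2 blocks in CAL33 control cells, from 82084315 to 82084712 on chromosome 17 (fold enrichment 43.6). *SCD* had a single 3′ UTR peak in HSC3 rapamycin cells, from 100361749 to 100361959 on chromosome 10 (34.6). *SREBF2* was the gene listed with rapamycin in both lines and in neither control list. Its CDS peak ran from 41867001 to 41867151 in HSC3 and from 41867031 to 41867151 in CAL33 on the plus strand of chromosome 22. The fold enrichments of 2.23 and 1.90 stood at percentiles 0.911 and 0.617, near the bottom of both lists. A 3′ UTR peak of *SREBF2* in HSC3 rapamycin cells (41906049 to 41906229) had a fold enrichment of 9.57.

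The exporter *ABCA1* had a 3′ UTR peak at percentile 96.0 in CAL33 control cells (fold enrichment 421, chromosome 9, 104781721 to 104781990), which overlapped one of its peaks in HSC3 rapamycin cells (95.7, from 104781661 to 104781930). A second HSC3 rapamycin peak ran from 104783338 to 104783547 (60.2). *NPC1* had overlapping 3′ UTR peaks in HSC3 control cells (56.1, chromosome 18, 23531922 to 23532192) and CAL33 rapamycin cells (115, from 23531982 to 23532222). These genes were thus listed under opposite treatments in the cell lines. *MSMO1* had overlapping peaks in HSC3 with rapamycin (CDS, 41.0) and without (3′ UTR, 33.6). *CYP51A1* had a 3′ UTR peak in CAL33 control cells (69.2) despite its low counts, and *INSIG1*, *MVD* and *NSDHL* had a single peak each, with a false discovery rate of 0.0912, 0.508 and 0.500.

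Within a line, 3 of the 5 control peaks in HSC3 overlapped no rapamycin peak, as did 7 of 7 in CAL33, and 7 of 9 rapamycin peaks in HSC3 and 4 of 4 in CAL33 overlapped no control peak. Over all peaks these shares were 71.8%, 74.9%, 71.6% and 70.1%, so such absences were common in these lists. A peak can only be listed where enough RNA is read, and the part of RNA level in these absences was not tested.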

How the data were processed

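RNA-seq of 4 libraries and 4 m6A peak lists were re-analysed. Per the labels, the submitters' processing notes name cutadapt 2.5, HISAT2 2.1.0, featureCounts 1.6.3, HOMER 4.10.4 and hg38, without roles; the counting settings, the use of strand, the peak caller and its thresholds are not given in the sources used here. The authors deposited raw read counts per Ensembl gene, under a name that gives HTSeq rather than featureCounts. Which of these tools counted the reads is therefore not settled. For each peak the authors deposited a fold enrichment ratio over input, a p-value, and scores holding log10 p and log10 false discovery rate. Peaks were called on each pair of immunoprecipitated and input RNA.

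Genes were filtered by filterByExpr (15826 of 58302 kept), normalised by TMM and tested with edgeR 4.0.16 in R 4.3.3 (quasi-likelihood test, robust dispersion, two-sided, Benjamini-Hochberg over all tested genes, threshold 0.05), with the replicate number as a block, because the gene rule pairs libraries by number. Differences between numbers 1 and 2 correlated across genes between treatments (r = 0.901). Numbered-pair values are differences of log2 CPM with a prior count of 2. DESeq2 1.42.0, other normalizations and filters, and other peak thresholds were alternatives. The script steps were first tested on simulated data. Peaks overlapped by at least 1 bp on the same strand. Python 3.11.15 was used for peaks and promoters. Gene names came from an Ensembl table and promoters from RefSeq.

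The genes and lists were chosen with earlier results of these data known. All 35 genes are named, and from the other lists those past the threshold, at most 3 per direction, except 1 gene that is not reported here. Transcript lengths were not used, so levels were not compared between genes.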

Additional observations from a re-analysis of the deposited data

Results flagged for a closer look

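In 8 of the 35 genes the RNA difference between rapamycin and control had opposite signs in the numbered pairs. Opposite signs were also seen in 4756 of the 15826 tested genes. Each pair was 1 library against 1, so none of these differences was tested. The log2 difference of the number 2 pair minus that of the number 1 pair was −1.42 for *CYP51A1* (−1.15 and 0.27), −0.78 for *SREBF1* (−0.57 and 0.21) and −0.61 for *INSIG2* (−0.39 and 0.22), which were lower with rapamycin in number 2. It was 1.12 for *FADS2* (0.86 and −0.26), 0.71 for *FADS1* (0.70 and −0.01), 0.46 for *HSD17B7* (0.27 and −0.19), 0.31 for *LPIN1* (0.03 and −0.28) and 0.30 for *NPC1* (0.29 and −0.01), which were higher in number 2. Several of these are close to 0 in one pair.

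The change in the number of m6A peaks on the 35 genes on rapamycin was 4 in HSC3 and −3 in CAL33, which differ by −7, while the whole lists changed from 3930 to 3952 and from 3625 to 3079 peaks. For *ABCA1* the change was 2 in HSC3 and −1 in CAL33 (−3 between the lines), and for *NPC1* it was −1 and 1 (2 between the lines). With 1 library pair per line and treatment, these differences were not tested.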

How the results depend on the processing

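The fit without the replicate block set every count of called genes to 0, for all genes (736 higher and 554 lower with the block), for the 35 genes (1 and 8) and for the other lipid genes (2 and 7). The common dispersion was 0.061 with the replicate block and 0.636 without it. DESeq2 without the block gave 22 higher and 20 lower among all genes and 0 in both gene groups, where 29 of the 35 genes (not *PMVK*, *CYP51A1*, *HSD17B7*, *INSIG2*, *STARD4* and *ABCG1*) and 70 of the 88 other lipid genes had an adjusted p. With the block, DESeq2 called 416 genes higher, against 402 lower, and 4 other lipid genes lower, with *MVK* the one change among the 34 of the 35 genes with an adjusted p. Upper-quartile normalization gave 360 lower genes, against 805 higher, and 4 other lipid genes lower. Without a filter on low counts 2 of the 35 genes were higher and 12 lower, and with at least 10 counts in every library 0 were higher, because *ABCG1* was among the 2 no longer tested, and 4 other lipid genes were higher. DESeq2 size factors and a 1.5-fold minimum changed no call among the 35.

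Leaving out 1 library leaves 1 numbered pair, a value with no test. The 9 called genes kept their direction in each pair, which is no separate check because the calls were made from the same pairs. The values ran from −1.15 to 0.27 for *CYP51A1*, −0.19 to 0.27 for *HSD17B7*, −0.57 to 0.21 for *SREBF1*, −0.39 to 0.22 for *INSIG2*, −0.011 to 0.70 for *FADS1*, −0.26 to 0.86 for *FADS2*, −0.28 to 0.034 for *LPIN1* and −0.0077 to 0.29 for *NPC1*. *FADS2* also changed sign to −0.042 without the replicate block and to −0.024 with DESeq2 and no block.

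With a false discovery rate of at most 0.05, 2 of the 4 peaks gained in CAL33 remained. Genes with a peak in CAL33 rapamycin cells fell to 2 of 35 under that threshold (4 without it). The other peak counts moved by no more than 2 under the peak thresholds and overlap rule run. The depth of the m6A libraries is unknown.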
